A study of Mus musculus with 3 samples.

Results

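The lone acetylated sites of old hematopoietic stem cells were 347 autosomal H3K27ac regions that met an H3K4me1 region and had no other H3K27ac region within 100 kb of either end. They were taken from 93413 H3K27ac regions in all, of which 92455 lay on the 19 autosomes. The sites were chosen by the measured positions of the called regions of both marks. The rule read only the positions of the regions in the peak lists, so the isolation of these sites and the presence of H3K4me1 at them are no findings. Fold, width, summit position and the strength of H3K4me1 were not part of the rule. A wide region of either mark nonetheless meets the other more easily, so width is not wholly free of the rule. Both marks were profiled in hematopoietic stem cells from bone marrow of C57BL/6 mice aged 24 months, sorted as SP-KSL-CD150+ cells. The sort combines side population dye efflux with c-Kit, Sca-1 and CD150 on cells without lineage markers. There was 1 library for each mark, each described as a technical replicate of the first biological replicate, and an input library that was not analysed here. The series states 50000 to 100000 cells for these experiments, and how many mice gave them is not given in the sources used here.

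H3K27ac is an acetylation of histone H3 that is laid down by p300 and CBP at active promoters and enhancers. H3K4me1 is a methylation written largely by MLL3 and MLL4 that marks enhancers, active or poised, and the shoulders of active promoters. Around an active promoter H3K4me1 usually gives way to H3K4me3 at the centre, so that it forms a valley there, whereas at an enhancer it can extend over the acetylated site. Neither H3K4me3 nor an annotation was used here, so the position of H3K4me1 does not assign a site to either class. In blood stem cells the genes of cell identity tend to lie among dense groups of acetylated regions. A site with no acetylated neighbour over a long distance lies outside such groups by position, and which genes lie near these sites was not tested.

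No gene, promoter or enhancer is named for a site, because no mm9 annotation was used here, and no sequence is shown for the same reason. The labelled cell type was likewise not checked against marker genes. Coordinates are those of mm9, counted from 1. Since a mark has a single library, the differences below could not be set against replicate error, and every value describes these libraries. A summit, the highest point of a region, held a median of 13 reads over all H3K27ac regions (lowest 8) and 20 over all H3K4me1 regions (lowest 10). Fold is the authors' value from their peak caller, the ratio of the summit to its local background. Intervals in brackets are 95% intervals for counting error only.

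Lone sites were weaker and narrower than other acetylated regions with H3K4me1, and stronger and wider than lone sites without it. The median H3K27ac summit of the 347 sites was 3.84-fold (quartiles 3.25 and 5.16, from 1.76 to 23.3), with a median of 13 reads. It was 4.37-fold (quartiles 3.55 and 5.91) in the 66199 autosomal regions that had H3K4me1 but were not lone. It was 3.25-fold in the 561 lone regions that met no H3K4me1. The quartile ranges of the lone sites and of the regions that were not lone overlapped, so the 2 sets differed in their centre and overlapped widely. The median width was 324 bp (interval 303 to 369 bp) in the lone sites, 449 bp in the regions that were not lone and 233 bp in the lone regions without H3K4me1. Wide regions meet H3K4me1 more easily, so the contrast in width with lone regions that lack it is partly set by the rule. How far the contrast in fold follows from that in width was not tested. Of the lone sites, 182 (52.4%) were under 4-fold, against 41.3% of the regions with H3K4me1 that were not lone and 84.5% of the lone regions without it. Summits of 10-fold or more were found at 22 lone sites (6.34%, interval 4.02 to 9.44%), where 7.75% of all autosomal H3K27ac regions reached that fold. Among the regions with H3K4me1 that were not lone, 10.1% reached it, a value above the interval of the lone sites.

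Strong lone sites were wide, as elsewhere. Across the 347 sites, which come from the same library pair, H3K27ac fold and width had a Spearman rho of 0.575 and a Pearson r of 0.724. The median width went from 253 bp in the 53 sites under 3-fold to 758 bp in the 40 sites from 6-fold to 10-fold and 1299 bp in the 22 sites of 10-fold or more. At like fold the lone sites were the narrower ones in the 3 classes between 3-fold and 10-fold. The medians of lone sites and of regions that were not lone were 277 bp (interval 252 to 301 bp) and 310 bp from 3-fold to 4-fold, 393 bp (interval 319 to 438 bp) and 469 bp from 4-fold to 6-fold, and 758 bp (interval 603 to 883 bp) and 1033 bp from 6-fold to 10-fold. In the class of 10-fold or more the medians were 1299 bp (interval 1066 to 1778 bp) and 1642 bp, and the interval of the lone sites held both. Under 3-fold the medians were 253 and 263 bp.

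The H3K4me1 partner of a lone site was weaker and shorter than that of other acetylated regions. At its summit the partner reached 4.42-fold in the median (quartiles 3.56 and 5.48), with 22 reads, against 6.53-fold (quartiles 4.98 and 8.21) with 33 reads for regions that were not lone. Its median width was 868 bp (interval 773 to 993 bp) against 2043 bp. H3K4me1 was nonetheless the wider mark at 277 of the 347 sites (79.8%), and at 89.3% of the regions that were not lone. It reached past the ends of the lone acetylated region by a median of 458 bp in all, both sides added, against 1554 bp. In these comparisons an H3K4me1 region met by several acetylated regions counts once for each, which did not occur at lone sites. Counted once each, the 376 H3K4me1 regions at lone sites had medians of 4.41-fold, 854 bp and 21 reads. The 51268 H3K4me1 regions with H3K27ac elsewhere, within 100 kb of regions that were not lone, had 5.69-fold, 1410 bp and 29 reads. These contrasts were smaller, in the same direction. The strength of acetylation and that of the methylation beside it were almost unrelated across sites. The folds of the marks had a Spearman rho of 0.0994 and a Pearson r of 0.0952 over the 347 sites, and their widths had a rho of -0.000771. In the regions that were not lone the folds had a rho of 0.155 and an r of 0.0843, and the widths a rho of 0.140. The weak relation of the folds was thus not particular to lone sites. The partner's median fold was 4.39 at sites under 3-fold, 4.42 from 4-fold to 6-fold and 5.00 at 10-fold or more, and in each of the 5 fold classes it lay below the median at regions that were not lone, which was 5.90 under 3-fold and 6.74 at 10-fold or more.

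**Figure D1:**
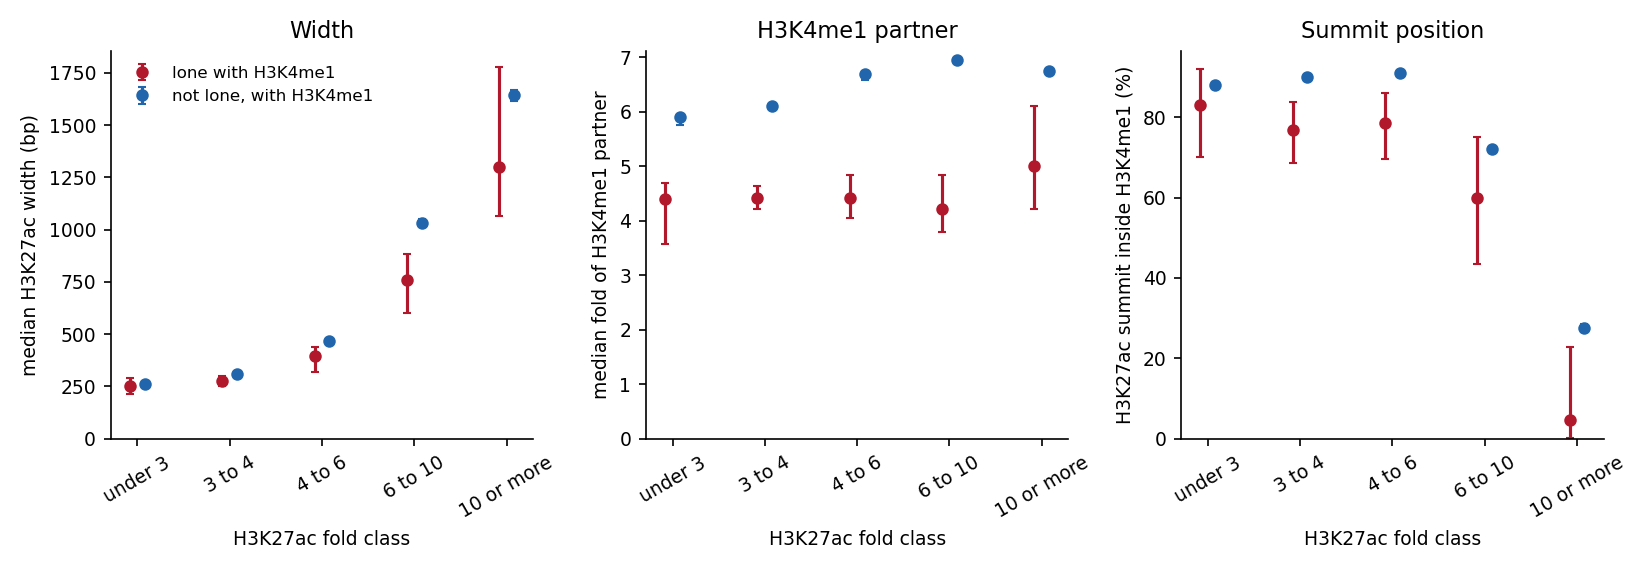
Lone sites with H3K4me1 (red) and regions with H3K4me1 that were not lone (blue) by H3K27ac fold class, with the median width in bp, the median fold of the H3K4me1 partner and the share of H3K27ac summits inside H3K4me1 in percent. Bars are 95% counting intervals. The partner fold of the lone sites stays between 4.22 and 5.00 while the share of summits inside H3K4me1 ends at 4.55% in the class of 10-fold or more.

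Most lone sites were a single acetylated region set in, or at the edge of, a single H3K4me1 region. Of the 347, 318 met 1 H3K4me1 region, 29 met a pair and 0 met 3 or more, a count that allows a share of up to 1.06%. Among the 318, acetylation lay wholly inside the H3K4me1 region at 166 (52.2%) and ran out of it at 1 end at 143 (45.0%), and at 9 the H3K4me1 region lay inside the acetylated one. The corresponding shares at regions that were not lone were 70.0%, 28.6% and 1.39%. Overlap could be slight. On chromosome 11 from 46403383 to 46403625 it came to 0.412% of the acetylated width. At 145 lone sites the H3K27ac and H3K4me1 summits were at most 200 bp apart (41.8%, interval 36.5 to 47.2%), against 24.8% of the regions that were not lone. The median distance was 263 bp at lone sites and 558 bp at the regions that were not lone. Partners of lone sites were shorter and not shared between acetylated regions, which leaves less room between the summits. Summit distance at like partner width was not tested.

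The position of the acetylation summit changed with its strength. It lay inside H3K4me1 at 249 of the 347 sites (71.8%, interval 66.7 to 76.4%), where the value was 81.2% of all autosomal H3K27ac regions that met H3K4me1. The lower share was not particular to lone sites. With the nearest acetylated neighbour up to 1 kb away it was 85.5%, from 25 to 50 kb 62.3% and from 50 to 100 kb 68.9%. It was 74.1% from 100 to 200 kb and 67.9% beyond 200 kb. At lone sites under 3-fold the summit lay inside at 44 of 53 (83.0%), and from 3-fold to 4-fold at 99 of 129 (76.7%). From 4-fold to 6-fold it did so at 81 of 103 (78.6%), and from 6-fold to 10-fold at 24 of 40 (60.0%). At 10-fold or more it did so at 1 of 22 (4.55%, interval 0.115 to 22.8%). In regions that were not lone the share was 87.9% under 3-fold, 90.0% from 3-fold to 4-fold, 90.9% from 4-fold to 6-fold, 72.0% from 6-fold to 10-fold and 27.5% at 10-fold or more (1849 of 6718). The last value lies outside the interval of the 22 lone sites. In both sets the share was lower from 6-fold upward than in each class below. At the strong lone sites, then, H3K4me1 lay beside the summit with 1 exception. A valley, with H3K4me1 at 1 kb to the left and to the right and none over the summit, was found at 9 of the 22 (40.9%, interval 20.7 to 63.6%), and at 35.2% of the regions of that fold that were not lone. It was found at 0 of 53 lone sites under 3-fold, 1 of 129 from 3-fold to 4-fold, 3 of 103 from 4-fold to 6-fold and 2 of 40 from 6-fold to 10-fold.

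**Figure D2:**
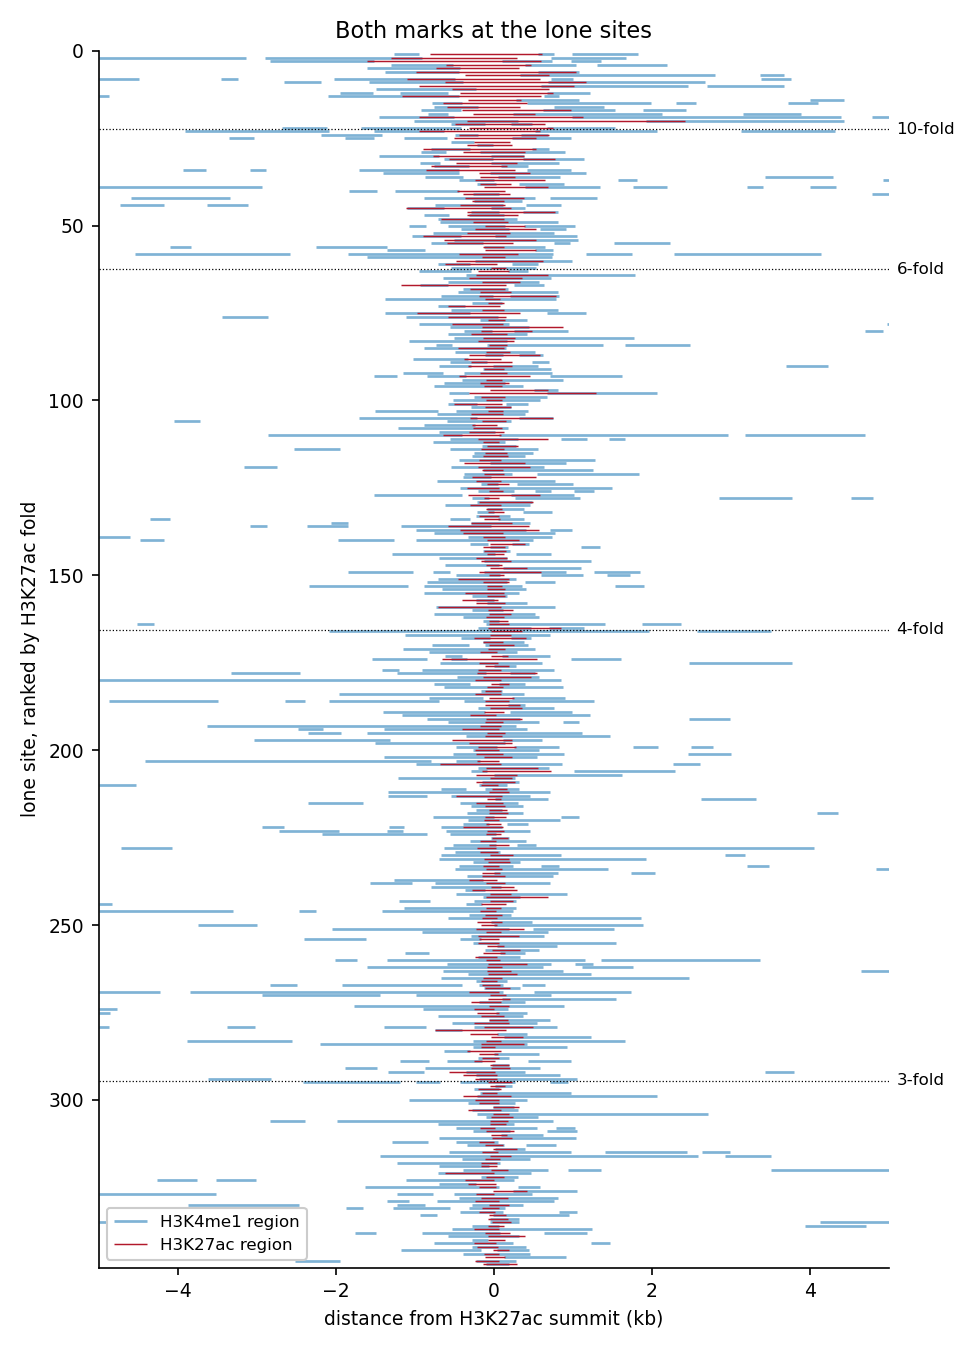
H3K27ac regions (red) and H3K4me1 regions (blue) at the 347 lone sites, 1 row per site ranked by H3K27ac fold from the top, against distance from the H3K27ac summit in kb. Dotted lines mark the fold limits. In the 22 uppermost rows the blue regions lie beside the summit with 1 exception, and further down they cover it in most rows.

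Around the lone sites H3K4me1 fell away quickly. Among the 285 sites under 6-fold, H3K4me1 covered 78.6% of the summits, and at 1 kb it covered 20.7% on the left and 19.3% on the right. At the 62 sites of 6-fold or more it covered 40.3% at the summit and 40.3% at 1 kb on either side. At 250 bp it covered 35.5% on the left and 40.3% on the right, and at 500 bp 54.8% on the left and 50% on the right. At 5 kb the cover over all 347 sites was 4.03% and 2.31%, whereas around the regions that were not lone it was 32.2% and 31.9%. At 208 lone sites (59.9%) H3K4me1 was absent at 1 kb on both sides, against 19.4% of the regions that were not lone. Of the 92455 autosomal H3K27ac regions, 41042 had an acetylated neighbour up to 1 kb away and 23834 from 1 to 5 kb. H3K4me1 was met by 88.0% and 66.9% of these. The rule bars such neighbours at lone sites, so the contrasts in cover are partly set by it. The size of that part was not tested.

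**Figure D3:**
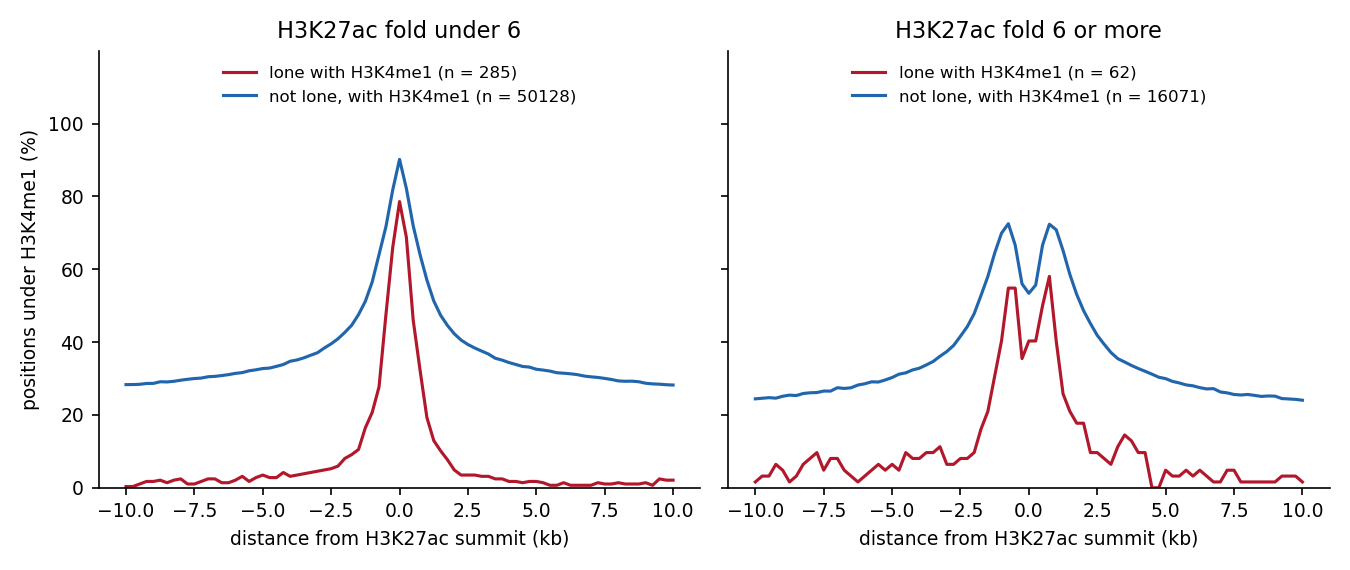
Share of positions under H3K4me1, in percent, against distance from the H3K27ac summit in kb, for H3K27ac summits under 6-fold (left) and of 6-fold or more (right). Lone sites (red) and other regions with H3K4me1 (blue) both have a single peak under 6-fold and a dip at the centre from 6-fold, and only the blue curves keep a level above 20% at 10 kb.

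The 10 strongest lone sites all had their acetylation summit outside H3K4me1. The strongest lay on chromosome 13 from 74776603 to 74778010, with 23.3-fold H3K27ac and 78 summit reads. Its partner was short and weak, 202 bp wide and 3.37-fold with 15 reads, and it covered 3.20% of the acetylated width. The second, on chromosome 18, reached 22.2-fold with 74 reads beside an H3K4me1 region of 5.13-fold. The third, on chromosome 19 from 28084929 to 28087129, had the same 22.2-fold and 74 reads, was 2201 bp wide, and met a pair of H3K4me1 regions, the stronger at 6.52-fold. The fourth lay on chromosome 6 from 133054862 to 133055941 at 21.6-fold, with the nearest acetylated region 434.4 kb away and a pair of H3K4me1 regions around it. These 4 were the lone sites above 20-fold, and their H3K27ac background was at the genome-wide level.

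The next 6 ranged from 19.5-fold to 14.2-fold. The fifth, on chromosome 13 from 86185360 to 86186408 (19.5-fold, 65 reads), had 1 weak partner of 3.45-fold and no other H3K4me1 region within 100 kb. The sixth, on chromosome 10 from 29918984 to 29921007 (17.4-fold, 58 reads), was 2024 bp wide and had an H3K4me1 region at each end and none further out within 100 kb. The seventh lay on chromosome 5 from 138882664 to 138883722 (16.8-fold) beside an H3K4me1 region of 7.16-fold and 2479 bp. The eighth lay on chromosome 6 from 6527419 to 6529101 (16.5-fold), where the background around the H3K4me1 partner was 1.88 times the level of the whole library. The ninth, on chromosome 3 from 113332294 to 113334071 (15.96-fold, 53 reads), was also among the most isolated, with 3278 kb to the next acetylated region on the left and 1901 kb on the right. The tenth lay on chromosome 9 from 18096010 to 18097974 (14.2-fold, 47 reads). All 10 were wider than 1 kb, and H3K4me1 covered from 3.20% to 50.4% of their width.

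The 5 widest lone sites were all at 10-fold or more. The widest lay on chromosome 10 from 102829721 to 102832474, was 2754 bp wide and reached 10.16-fold, and it was the 1 site of 10-fold or more whose summit lay inside H3K4me1. The third widest, on chromosome 14 from 49791076 to 49793153 (2078 bp, 10.3-fold), had H3K4me1 at 1 kb on both sides of its summit. The other 3 of the 5 widest were among the 10 strongest.

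The 5 widest H3K4me1 partners sat under weak acetylation, although H3K27ac fold and partner width had a Spearman rho of 0.00729 over the 347 sites. The first was 5845 bp wide and 9.69-fold with 45 reads, on chromosome 14 from 46812772 to 46818616, and its acetylated region of 322 bp reached 3.84-fold with 12 reads. The next 4, from 4687 to 3955 bp wide and from 6.53-fold to 7.37-fold, held acetylated regions of 235 to 391 bp with 9 to 14 reads, on chromosome 5 from 47860696 to 47860930, chromosome 12 from 96931398 to 96931788, chromosome 8 from 89993899 to 89994158 and chromosome 3 from 17954845 to 17955224. In all 5 the acetylated region lay wholly inside the H3K4me1 region.

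Lone sites lay in stretches poor in H3K4me1 as well. The rule did not read H3K4me1 beyond the site itself, but the marks often lie together. Of all autosomal H3K27ac regions, 72% met H3K4me1. Barring acetylated neighbours thus also bars H3K4me1 that goes with them, so this scarcity is partly set by the rule. The size of that part was not tested. The median lone site had 3 other H3K4me1 regions within 100 kb (quartiles 1 and 4, from 0 to 19), against 30 for regions with H3K4me1 that were not lone and 2 for lone regions without H3K4me1. At 48 lone sites (13.8%, interval 10.4 to 17.9%) there was no other H3K4me1 region in that range, against 23.7% of the lone regions without H3K4me1 and 0.0710% of the regions with H3K4me1 that were not lone. At these 48 sites the median acetylation was 4.43-fold, and the partner had a median of 4.31-fold and 614 bp. When regions were limited to those with 5 or fewer other H3K4me1 regions within 100 kb, the partner fold was 4.41 at 288 lone sites (interval 4.21 to 4.63) and 5.055 at 1507 regions that were not lone (interval 4.87 to 5.055). The partner widths were then 854 and 1122 bp. The contrast in partner width was thus smaller among sites of like surroundings than among all sites. A shared H3K4me1 region again counts once for each acetylated region in these values.

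The share of lone acetylated regions that had H3K4me1 varied with their strength and their surroundings, given here as a description because the rule used this overlap. Of the 908 lone autosomal H3K27ac regions, 347 (38.2%, interval 35.04 to 41.5%) met H3K4me1, against 72% of all autosomal H3K27ac regions. Under 3-fold the share was 22.0% of 241 lone regions, from 4-fold to 6-fold 58.9% of 175, from 6-fold to 10-fold 76.9% of 52, and at 10-fold or more 88.0% of 25 (interval 68.8 to 97.5%). The regions that were not lone had 49.1%, 83.3%, 94.1% and 94.1% in the same classes, and the interval of the strongest lone class held that value. With no other H3K4me1 region within 100 kb, the share was 26.5% of 181 lone regions (interval 20.2 to 33.6%) and 39.5% of 119 regions that were not lone (interval 30.7 to 48.9%). With 1 to 2 others it was 36.6% of 336 lone regions (interval 31.4 to 42.0%) and 43.7% of 785 (interval 40.2 to 47.2%). With 3 to 5 others it was 45.7% of 256 lone regions (interval 39.5 to 52.0%) and 45.5% of 2456. With 6 to 10 others it was 42.5% of 120 (interval 33.5 to 51.9%) and 51.4% of 6463, and with 11 or more 53.3% of 15 (interval 26.6 to 78.7%) and 75.1% of 81724. The share was lower in lone regions in 4 of these 5 classes, and the intervals of both sets overlapped in all 5.

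The share with H3K4me1 and the width and fold of the partner changed by degrees with the distance to the nearest acetylated neighbour. The share that met H3K4me1 was 88.0% up to 1 kb, 58.6% from 5 to 10 kb, 47.4% from 25 to 50 kb and 40.9% from 50 to 100 kb, and it was 37.4% from 100 to 200 kb and 39.6% beyond 200 kb. The median partner width went from 2862 bp up to 1 kb to 1001 bp from 50 to 100 kb, 930.5 bp from 100 to 200 kb and 770 bp beyond 200 kb (interval 588 to 987 bp). The partner's median fold was 4.98 from 50 to 100 kb, 4.62 from 100 to 200 kb and 4.002 beyond 200 kb. The limit of 100 kb thus lay on a gradual course and not at a step in these 3 values. Close acetylated neighbours can share 1 wide H3K4me1 region, which then counts once for each. The large partner widths at short distances are therefore partly set by the distance itself. The acetylated regions with H3K4me1 had a median width of 402 bp from 50 to 100 kb and 316.5 bp from 100 to 200 kb. Beyond 200 kb it was 345 bp. Their median fold was 4.14, 3.84 and 3.91 in the same order.

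**Figure D4:**
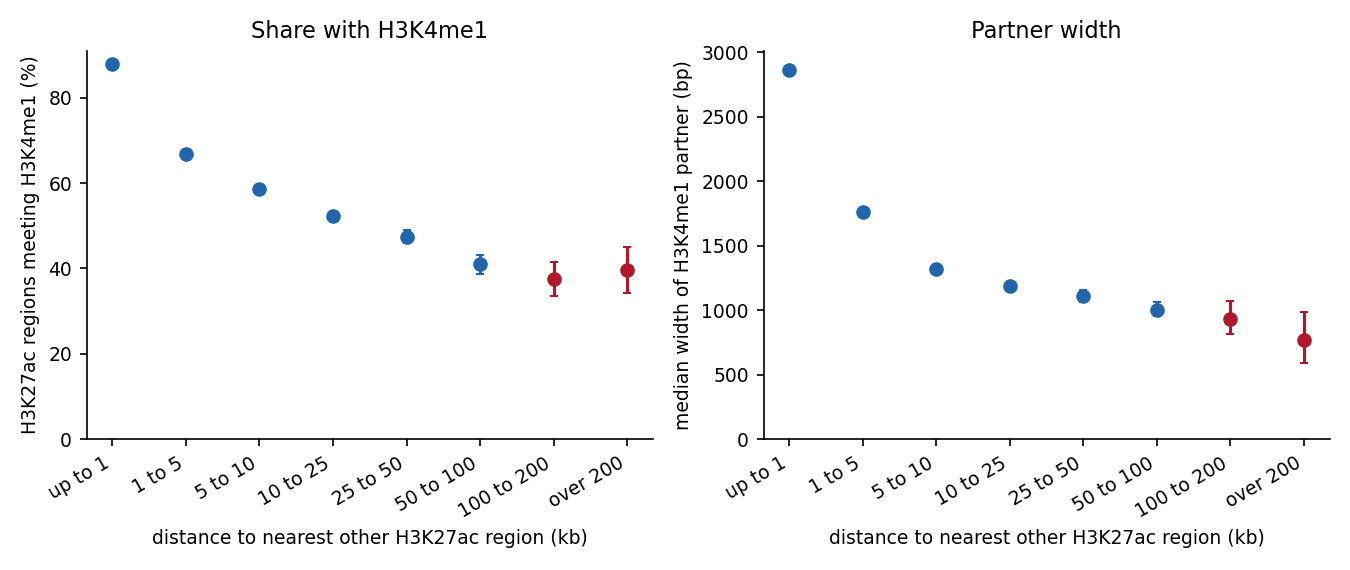
Autosomal H3K27ac regions by distance to the nearest other H3K27ac region in kb, with the share that met H3K4me1 in percent and the median width of the H3K4me1 partner in bp. Red points are lone regions, blue points the rest, and bars are 95% counting intervals. An H3K4me1 region shared by several acetylated regions counts once for each. The share goes from 88.0% to 40.9% over the blue points and lies at 37.4% and 39.6% in the red ones.

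On both sides of the limit the nearest regions included a stronger site among weak ones. The members nearest to it lay on chromosome 15 from 49832340 to 49832594 (100.5 kb to the nearest acetylated region, 3.25-fold), chromosome 5 from 32912806 to 32914330 (100.7 kb, 9.75-fold) and chromosome 1 from 127046414 to 127046626 (100.7 kb, 3.25-fold). The regions with H3K4me1 left out most narrowly lay on chromosome 3 from 91884271 to 91884502 (99.8 kb, 3.25-fold), chromosome 4 from 24596053 to 24596831 (99.7 kb, 3.55-fold) and chromosome 6 from 3448479 to 3448909 (99.5 kb, 6.80-fold).

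Isolation often went far beyond the limit. The median distance to the nearest acetylated region was 167.9 kb, 131 sites (37.8%) had none within 200 kb, 29 none within 500 kb and 14 none within 1000 kb. The distance had a Spearman rho of 0.0354 with H3K27ac fold over the 347 sites. The most isolated site lay on chromosome 1 from 26744069 to 26744375, 1989 kb from its nearest neighbour, but with 1.88-fold enrichment over a background 6.49 times that of the library as a whole. The second lay on chromosome 7 from 11080121 to 11080723 (1927 kb, 7.11-fold, 26 reads), with H3K4me1 of 5.92-fold on the left of its summit. The third was the site on chromosome 3 at 15.96-fold described above. The fourth lay on chromosome 1 from 116061744 to 116062404 (1708 kb, 5.47-fold) and the fifth on chromosome 14 from 83317298 to 83318416 (1423 kb, 6.80-fold), and neither had another H3K4me1 region within 100 kb. Unmappable sequence and assembly gaps were not removed from these distances, and their part in them was not tested.

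Sequence more than 100 kb from any acetylated region that was not lone made up 871.3 Mb, or 35.2% of the autosomes. It held 5.34 H3K4me1 regions per Mb, against 92.0 per Mb elsewhere, and H3K4me1 covered 0.400% of it against 10.5% elsewhere. Of its 4650 H3K4me1 regions, 374 (8.04%, interval 7.28 to 8.86%) met a lone acetylated region, where 34% of all autosomal H3K4me1 regions met H3K27ac. The 376 H3K4me1 regions at lone sites, 374 of them wholly in these stretches, had a median of 4.41-fold and 854 bp. The 4276 in these stretches without acetylation had 3.61-fold and 507 bp. The share with acetylation was 5.17% for H3K4me1 regions under 3-fold, 10.7% from 4-fold to 6-fold and 15.2% at 6-fold or more (55 of 363, interval 11.6 to 19.3%). Elsewhere the regions of 6-fold or more met H3K27ac in 71.9%. An H3K4me1 region of 2 kb or more met acetylation in 13.6% of 228 cases in these stretches and in 79.6% elsewhere. From 1000 to 2000 bp it did so in 15.5% of 821 cases in these stretches and in 51.4% elsewhere. The stretches were defined by having no acetylated region other than lone ones. Their low density of H3K4me1 is thus set in part by that definition, and a low share with acetylation there is fixed by it. The course of this share with H3K4me1 strength and width was not set by that definition. A wider region meets another more easily by position alone, and how far this shaped the course was not tested.

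A few lone sites stood amid many H3K4me1 regions. There were 8 with 11 or more others within 100 kb, and 4 of these reached 10-fold or more, namely the sites on chromosome 19 (22.2-fold, 19 others) and chromosome 6 (16.5-fold, 12 others) given above and a facing pair on chromosome 2. The first of the pair lay from 74416235 to 74417405 (12.4-fold, 41 reads, partner of 4.63-fold) and the second from 74663552 to 74664479 (10.9-fold, 41 reads, partner of 2.74-fold). The 246.1 kb between them held no acetylated region but 44 H3K4me1 regions, or 178.8 per Mb, which covered 15.97% of the stretch with a median of 4.09-fold and 815 bp. This was the most among the 48 pairs of neighbouring lone sites, whose median was 2 H3K4me1 regions over 281.2 kb, and 6 pairs had none. One more pair had both sites at 10-fold or more, on chromosome 4 from 92608591 to 92609808 (12.7-fold) and from 93001389 to 93002768 (10.9-fold), with 2 H3K4me1 regions in the 391.6 kb between them. These pairs were chosen after their values were seen.

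Per Mb of whole chromosome, lone sites were most frequent on chromosome 3 and least on chromosome 7, and the order changed with the denominator. Chromosome 3 held 34, or 0.213 per Mb, and chromosome 1 held 33, or 0.167 per Mb. Chromosome 7 held 8 (0.0525 per Mb), chromosome 19 held 4 (0.0652 per Mb) and chromosome 11, which had the most acetylated regions per Mb at 54.4, held 10 (0.0821 per Mb). Chromosome 7 had 36.9 acetylated regions per Mb and 40.9% of its length more than 100 kb from acetylated regions that were not lone, yet 0.128 lone sites per Mb of that length, against 0.555 on chromosome 3 and 0.576 on chromosome 10, the highest. Per 1000 acetylated regions chromosome 19 was lowest at 1.37, with 1.42 on chromosome 7, and chromosome 3 highest at 6.94. Of the 38 lone acetylated regions on chromosome 7, 21.1% met H3K4me1, and of the 77 on chromosome 3, 44.2%. Numbers per chromosome were small, and stretches without mappable reads were not removed.

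**Figure D5:**
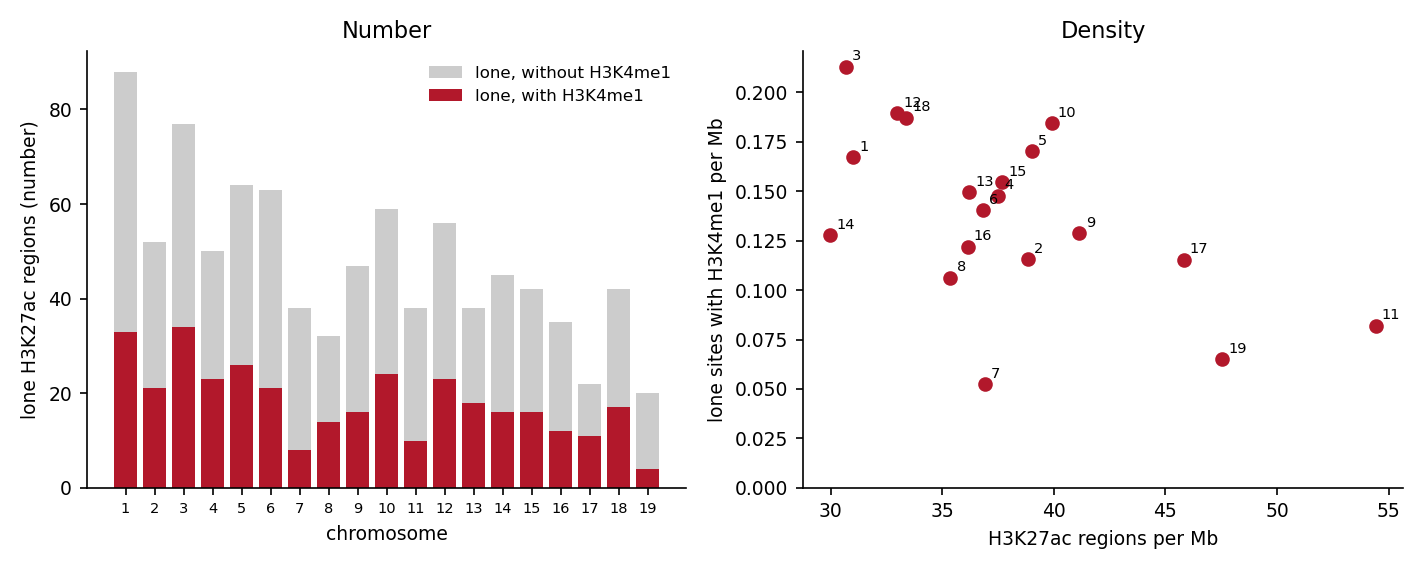
Left, lone H3K27ac regions per autosome, with those that met H3K4me1 in red and the others in grey. Right, lone sites with H3K4me1 per Mb against all H3K27ac regions per Mb, 1 point per autosome. Chromosome 3 is highest at 0.213 per Mb and chromosome 7 lowest at 0.0525 per Mb.

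Some of the weakest sites stood on a high local background for both marks. Fold is a ratio to that background, so low fold and a raised background go together in part by construction. A local background over 5% above that of the whole library, called raised here, was found at 102 lone sites (29.4%, interval 24.7 to 34.5%), and 26.4% of all autosomal H3K27ac regions had one. At 4 sites it was at least 2 times that level. The site of lowest fold, on chromosome 2 from 98506885 to 98507314, had 496 H3K27ac reads and 579 H3K4me1 reads at its summits. Its enrichment was 1.76-fold and 1.31-fold, over a background 117.9 and 118.2 times the library's level. The control behind the local background is not stated, so the values for the marks may share a source and are not independent evidence. The second lowest was the most isolated site on chromosome 1. The other 3 of the 5 lowest, on chromosome 1 from 130896606 to 130896798 and chromosome 11 from 46403383 to 46403625 (2.44-fold each) and on chromosome 3 from 156073621 to 156073827 (2.51-fold), had 11 to 13 reads over a background 1.59 to 1.98 times that level. None of the 10 strongest sites had a raised background in H3K27ac, a contrast that the ratio itself favours.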

How the data were processed

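H3K27ac and H3K4me1 were each measured by chromatin immunoprecipitation sequencing in 1 library, and 1 peak list per library was used. The input library was not analysed here. The submitters' processing notes name Bowtie2 2.0.6 and MACS2 2.0.10.20131216, with mm9 as the genome build. Options of the peak caller, its control and the handling of duplicates are not stated in the sources used here. Each deposited list gives a position, a summit offset and the peak caller's values. The authors' fold is the enrichment ratio of the summit over its local background. Significance is in the deposited lists as −log10 p and as −log10 q, again for the summit. The deposited score repeats the −log10 q on another scale and entered no result.

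Members were found by overlap of 1 bp or more and by a gap of more than 100 kb to the H3K27ac region on either side. The members, the fold classes and the sets compared were chosen with earlier results of these data known. Summit reads and local background were computed from fold and −log10 p, taking fold as (reads + 1)/(background + 1) and p as a Poisson tail, and at 100% of summits some whole read number matched the −log10 p in the list to 0.001. On simulated data this calculation returned 100% of 5000 summits per mark, and the interval functions matched a direct comparison at 100% of 300 regions. The simulation used the same formulas, so it checks the calculation only. Where a site met several H3K4me1 regions, the one of highest fold was taken as its partner. Shares have exact Clopper-Pearson 95% intervals and medians have 95% intervals from order statistics. Both cover counting over the regions of these libraries only, because reads carried no molecular identifiers, so that several can stem from 1 molecule, and there was no replicate. No p-value was computed.

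The regions named were the 10 of highest fold, the 5 widest, the 5 with the widest partner, the 5 most isolated, the 5 of lowest fold and 3 on either side of the isolation limit. Any other region named was chosen after its values were seen. Alternatives changed the isolation distance, the overlap, the limit on q and the background, and 1 more, joining of H3K27ac regions over 1 kb, was added after seeing the data. Gene start sites and sequence features were planned but not run, because no mm9 genome or annotation was used here. The designed gene lists were therefore not counted. Chromosome lengths came from GenomeInfoDb 1.38.1. Calculations ran in Python 3.11.15 with scipy 1.17.1, pandas 2.3.3 and numpy 2.4.6, and plots were drawn with matplotlib 3.10.9.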

Additional observations from a re-analysis of the deposited data

Results flagged for a closer look

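Lone sites of the same kind were also present on chromosome X, outside the autosomes described above. There were 28 lone H3K27ac regions with H3K4me1 there, counted by the same rule and given as a description. They were 29.8% (interval 20.8 to 40.1%) of the 94 lone regions on chromosome X and 2.94% of its 954 H3K27ac regions, against 0.375% on the autosomes. Their median fold was 4.73 with 15 reads. The summit lay inside H3K4me1 at 46.4% of them.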

How the results depend on the processing

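Of 63 alternative values 29 moved, by leaving the 95% interval (shares and medians) or by a factor over 1.5 (counts and the ratio of chromosomes). The 347 lone sites became 1094 with an isolation of 50 kb and 131 with 200 kb. With 50 kb the median width was 377 bp, the partner fold 4.81 and the number of other H3K4me1 regions 6. With 200 kb the partner fold was 4.002 and its width 770 bp. With 50% of the shorter region shared, 30.4% of lone regions had H3K4me1 (38.2% as reported) and the summit lay inside it at 86.2% (71.8% as reported). At a −log10 q of at least 5 in both lists there were 885 sites, 68.5% of lone regions had H3K4me1, and the medians were 5.61-fold and 717 bp for H3K27ac, 5.48-fold and 1306 bp for the partner and 4 other H3K4me1 regions. The summit was then inside at 64.0% and the background raised at 22.1%. With that limit for the sites alone there were 143, and the values were 69.8% with H3K4me1, 5.61-fold, 641 bp, 58.7% inside and 23.1% raised. Without raised background in either list there were 193 sites, 28.8% of lone regions had H3K4me1, and the median number of others was 1, while the share of raised background has no meaning there. Joining H3K27ac regions over 1 kb gave 41.8% with H3K4me1 and 402 bp. Removing regions from a list by itself lengthens distances and removes partners, and for the other shifts a cause was not tested. No paired analysis was possible because a mark is represented by a single library. The nearest gene start site and the sequence features were not run. Depth limits both the isolation and the pairing, since an H3K27ac summit under 8 reads or an H3K4me1 summit under 10 was never called.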
